A study of Rattus norvegicus with 30 samples.

Results

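The 10 arrays described here come from cultures of rat hepatocytes held in 60 uM clofibrate for 24 h (5 arrays) or 48 h (5 arrays), the lower dose of a study with 30 arrays in all. The arrays were chosen by their labelled dose and time alone. The question is how gene expression under this dose changed between the times. The other 20 arrays are cultures given the vehicle alone (1% DMSO, 5 arrays at 24 h and 5 at 48 h) or 1000 uM clofibrate (5 and 5). All groups share 1 cell source and 1 procedure. Cryopreserved hepatocytes of male Sprague Dawley rats, bought from a supplier and with no genetic alteration named in the labels, were plated on collagen under a Matrigel overlay and first dosed on the third day of culture, with clofibrate in DMSO or DMSO alone. Each array carries the RNA of 1 separate culture, a single well. The labels name separate cultures and no separate animals, so the p-values measure the spread between wells. A well harvested at 48 h had been in culture and in the drug a day longer than 1 harvested at 24 h, so time in culture and time in drug move together at 60 uM, and the DMSO cultures give the change with time in culture alone.

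Clofibrate is a fibrate, a class of lipid-lowering drugs. Its acid binds the nuclear receptor PPAR-alpha, which pairs with RXR on direct repeats of a hexamer near its target genes and raises the enzymes that take up, bind and oxidise fatty acids in peroxisomes, mitochondria and the endoplasmic reticulum. Rat hepatocytes respond strongly to fibrates. Hepatocytes in plates also lose, day by day, liver functions that hormones and neighbouring cells maintain in the animal, such as sex-typical cytochrome P450 enzymes and part of their secreted proteins.

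A signal is the deposited brightness of a gene's probe set on a linear scale, given as mean ± SD of 5 arrays. A change is the difference of mean log2 signals, 48 h minus 24 h, ± its standard error in 1 limma fit over all 30 arrays. A gene passed when its adjusted p (limma with Benjamini-Hochberg adjustment over the 18625 probe sets tested) was under 0.05. Each of the 10627 genes is represented by its brightest probe set. Correlations of log2 signal between arrays ran from 0.974 to 0.979 within 24 h, from 0.967 to 0.978 within 48 h and from 0.963 to 0.974 between the times at 60 uM. Replicate 1 at 60 uM for 48 h stood slightly apart, with a residual SD of 0.332 against 0.272 to 0.314 in the other 4 arrays of its group. Replicate 1 of DMSO at 48 h had 0.376. The 3'/5' ratio of actin, a sign of RNA integrity, was 2.43 ± 0.093 at 24 h and 2.33 ± 0.112 at 48 h. The hepatocyte-defining genes were bright at both times. The mean signal of Alb, the gene of serum albumin, was 81472 ± 8935 at 24 h and 86116 ± 11938 at 48 h, and 0 of the 11 measured members of the marker set lay at or under the level of the empty control probes. Precision is limited by having 5 arrays a group: the 95% interval of a gene's change had a median half-width of 0.257 on the log2 scale.

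Between 24 and 48 h at 60 uM, 600 genes rose and 538 fell, 5.65% and 5.06% of the genes tested. Most changes were small: 20 genes rose and 26 fell by 2-fold or more, and the median change over all genes was 0.0047. For 1066 genes, 10% of those tested, all 5 arrays of 1 time lay beyond all 5 of the other. Counted over probe sets, 887 rose and 735 fell (54.7% of the passing ones higher). That balance depends on how arrays are scaled. After centring each array on its median, 626 rose and 1002 fell (38.5% higher). After scaling to the poly-A control probe sets, 602 rose and 172 fell (77.8% higher), and the median of all probe sets moved from 0.013 to 0.081. In DMSO, 542 genes rose (5.1%) and 399 fell (3.75%) over the same day. The 60 uM and DMSO comparisons share no array. Of the genes that rose at 60 uM, 304 also rose in DMSO, which is 50.7% of the 60 uM list and 56.1% of the DMSO list. Of those that fell, 232 also fell in DMSO, 43.1% and 58.1% of each list. Of the genes that rose at 60 uM 2 fell in DMSO, and of those that fell 0 rose there. At 1000 uM, 1256 genes rose (11.8%) and 1451 fell (13.7%). They include 427 of the genes that rose at 60 uM (71.2% of that list, 34% of the 1000 uM list) and 408 of those that fell (75.8% and 28.1%). In the opposite direction, 8 genes that rose at 60 uM fell at 1000 uM, and 4 that fell at 60 uM rose. In all 3 treatments 231 genes rose and 184 fell.

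The 15 largest falls included genes of plasma and acute-phase proteins and the cytochrome P450 genes Cyp2c13 and Cyp1a2. The largest falls and rises were taken from passing genes whose arrays did not overlap between the times. Their separation is therefore not a result. Serpina6, the corticosteroid-binding globulin of plasma, had signals of 3532, 3715, 3954, 3639.6 and 3282 in the 5 arrays at 24 h and 715, 635, 760.4, 552 and 531 at 48 h. Every array at 48 h lay far below every array at 24 h. The change was -2.52 ± 0.13 (adjusted p = 4.33e-15), a 5.72-fold fall, beside -2.51 ± 0.13 in DMSO. Cyp2c13, a steroid hydroxylase typical of male rat liver, went from 10776, 10398, 10535, 9501 and 7355 to 2642, 2339, 2472, 2063 and 2145. Again no arrays overlapped, and the fall was 4.14-fold (-2.05 ± 0.11). Serpina3c, a protease inhibitor of the acute-phase group, fell by 1.99 ± 0.086, its relative Serpina3l fell by 1.42 ± 0.061, and Saa3, a serum amyloid A, fell by 1.22 ± 0.11. Hamp, the gene of the iron hormone hepcidin, went from 4976 ± 932 to 2013 ± 205, so it fell by 1.29 ± 0.15. Il1rn, the antagonist of the interleukin-1 receptor, fell by 2.08 ± 0.30, from 1979.8, 1956, 1725, 1801 and 1905 to 598, 752, 260.2, 257 and 556. The 48 h arrays spread widely and still lay below all 24 h arrays. Car3, a carbonic anhydrase abundant in male rat liver, fell by 1.81 ± 0.14. Its second probe set fell by 1.54 (adjusted p = 0.00782). Cyp1a2, the main hepatic CYP1A enzyme, fell by 1.46 ± 0.075 from 14994 ± 943 to 5453 ± 502. Gpc4, a heparan sulphate proteoglycan of the cell surface, fell by 1.33 ± 0.079, the glutathione transferase Gstp3 fell by 1.79 ± 0.33 and Lypd8 fell by 1.24 ± 0.16. Cd74, the invariant chain of MHC class II, and C1qb, a complement subunit made by macrophages, fell by 2.42 ± 0.38 and 1.71 ± 0.32 from low signals, 454 ± 101 to 110.0 ± 96.7 and 649 ± 173 to 215 ± 117.

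The largest rises included a sarcomeric actin, fatty acid desaturases and a carboxylesterase. Acta1, skeletal muscle alpha-actin, had signals of 841, 909, 1094, 1011 and 838 at 24 h and 3069.7, 3513, 3133, 3074 and 3436 at 48 h. The groups were far apart, and the change was 1.80 ± 0.14 (adjusted p = 2e-11), a 3.47-fold rise. Tsx rose by 1.80 ± 0.17, from 388 ± 90.4 to 1325 ± 69.6. Ces1d, a carboxylesterase of the endoplasmic reticulum that hydrolyses lipids and many ester drugs, went from 8070.1, 7326, 7168, 8445 and 10014 to 20558, 19518, 21050, 20972 and 22323, a 2.56-fold rise (1.36 ± 0.086). In DMSO it rose by 1.24 ± 0.086 and at 1000 uM by 1.32 ± 0.086. Cd36, a fatty acid transporter of the plasma membrane, rose by 1.09 ± 0.15, Ddc, the aromatic amino acid decarboxylase, by 1.14 ± 0.11, and Acsm2, a mitochondrial medium-chain acyl-CoA synthetase, by 1.03 ± 0.11. A second, dimmer probe set of Ddc changed by -0.11 and did not pass. Clec14a, a C-type lectin known from endothelium, rose by 1.40 ± 0.13, Ttc39a by 1.08 ± 0.28 and the transcription factor Sox4 by 1.05 ± 0.16. The other 2 probe sets of Sox4 did not pass (0.63 and -0.0069). Slc2a13, the proton myo-inositol cotransporter, rose by 1.20 ± 0.21, and its other probe set did not pass (0.21). Lrrn4cl rose by 1.63 ± 0.48, from 214, 122, 94.2, 222 and 186 to 557, 425, 631, 328 and 595, signals that are low throughout. Its call ended when replicate 1, 3 or 5 at 48 h or replicate 2 or 3 at 24 h was left out (adjusted p up to 0.0844). Duoxa1 passed with 1.32 ± 0.43 (adjusted p = 0.0487), but 1 array at 24 h read 41.3 where the others read 306 to 584, and without that array, replicate 1, the change was 0.61 (adjusted p = 0.142). Its call also ended without replicate 4 at 24 h or any 1 array at 48 h (adjusted p 0.0558 to 0.0989).

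**Figure D1:**
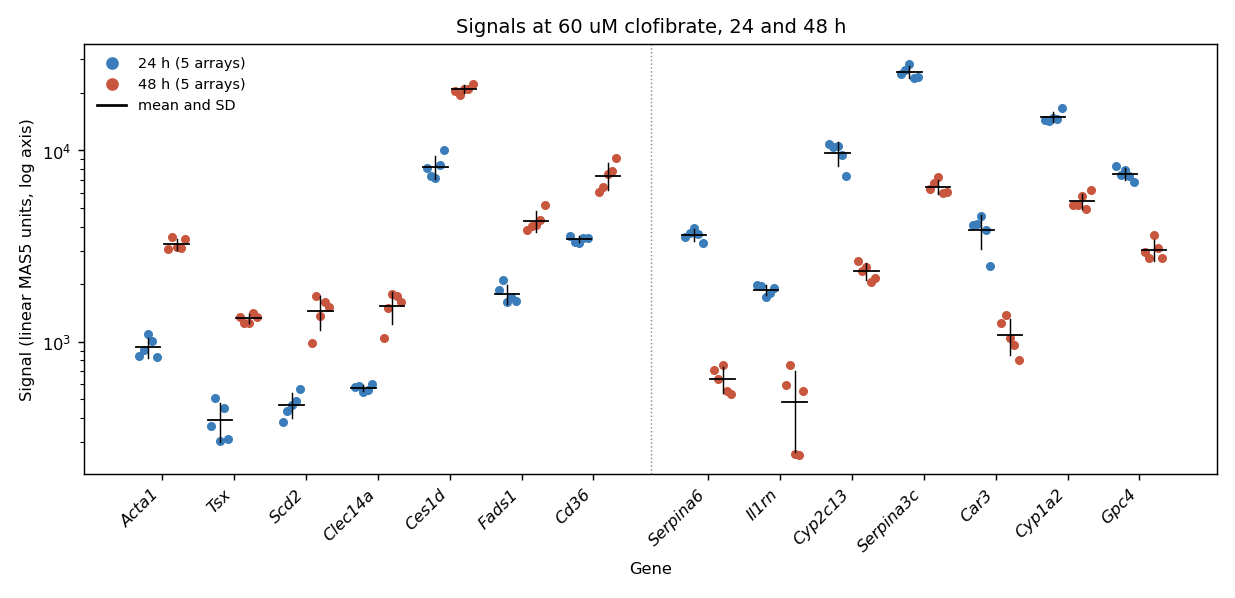
Signals of 7 of the largest rises (left) and 7 of the largest falls (right) at 60 uM clofibrate, on a log axis, with 1 point per array, 5 at 24 h (blue) and 5 at 48 h (red), and the mean and SD in black. In each of the 14 genes the 5 arrays at 48 h lie entirely above or entirely below the 5 at 24 h. This was a condition of choosing them and not a result.

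More genes of fatty acid uptake and oxidation rose than fell with time at 60 uM, by modest amounts. In mitochondrial beta-oxidation, 11 of 21 measured members were higher, 1 lower and 9 did not pass, with a list median of 0.15 beside 0.0047 over all genes. With median centring or scaling to the poly-A controls 7 were higher. Cpt1b, the muscle form of carnitine palmitoyltransferase 1, rose by 0.51 ± 0.071 from 2363 ± 52.5, the medium-chain dehydrogenase Acadm by 0.47 ± 0.063, and the dienoyl-CoA reductase Decr1 by 0.31 ± 0.048. Acaa2, the thiolase of this pathway, rose by 0.29 ± 0.053 on its brightest probe set, while a second, dimmer one fell by 0.49 (adjusted p = 0.00404), so its direction is uncertain. In peroxisomal beta-oxidation, 5 of 17 measured members were higher, 2 lower and 10 did not pass (median 0.079). Ehhadh, the bifunctional enzyme that hydrates and dehydrogenates fatty acyl chains, had signals of 8139.7, 8501, 8181, 8026 and 9598 at 24 h and 13734, 14498, 15222, 14834 and 18010 at 48 h. All arrays at 48 h were higher, by 0.84 ± 0.076 on the log2 scale or 1.79-fold. The acyl-CoA synthetase Slc27a2 rose by 0.38 ± 0.041, whereas Crot, which makes carnitine esters of shortened chains, and the CoA hydrolase Nudt19 fell by 0.21 ± 0.044 and 0.27 ± 0.071. Both falls ended with scaling to the poly-A controls (adjusted p 0.401 and 0.285), which left 3 peroxisomal genes higher and 0 lower, and that of Crot also with the mean of its probe sets (0.232). Among the omega-hydroxylases and thioesterases, 3 of 15 measured members were higher, 1 lower and 11 did not pass. Cyp4a1, a fatty acid omega-hydroxylase, rose by 0.52 ± 0.094 and Cyp4f1 fell by 0.35 ± 0.084, while the changes of Cyp4a3 and Acot1 were -0.04 ± 0.083 and 0.79 ± 0.47 and did not pass. The change of Cyp4f1 with scaling to the poly-A controls was -0.29 (adjusted p = 0.125), and 1 member of the list was higher and 0 lower. Among other PPAR-alpha targets, 12 of 34 measured members were higher, 4 lower and 18 did not pass (median 0.19), and with scaling to the poly-A controls 11 were higher and 2 lower. Vnn1, a pantetheinase, had signals of 7138, 6977, 6432, 6677 and 6718 and then 12127, 11796, 12002, 11907 and 12154, 2 tight groups that lie well apart, with a rise of 0.82 ± 0.068. Aqp7, a glycerol channel, rose by 0.65 ± 0.069. Pdk4, a kinase that holds back pyruvate oxidation, went the other way, from 12839, 14491, 13040, 11388 and 11424 to 9414, 10476, 8898, 10083 and 10235. It fell by 0.36 ± 0.063 with no overlap of arrays. Angptl4, a lipoprotein lipase inhibitor, Plin2, a lipid droplet coat protein, and Pex11a, a peroxisome division factor, changed by -0.011 ± 0.061, -0.063 ± 0.055 and 0.045 ± 0.052 and did not pass, although a second probe set of Plin2 fell by 0.31 (adjusted p = 0.00612). PPAR-alpha targets also moved with time in DMSO, where 13 of the 34 were higher and 2 lower, and 7 of the 21 mitochondrial beta-oxidation genes were higher. In peroxisomal beta-oxidation 5 of the 17 were higher and 2 lower in DMSO, as at 60 uM, with a median of 0.087. Of the omega-hydroxylases and thioesterases 5 of the 15 were higher and 0 lower in DMSO (median 0.188, beside 0.107 at 60 uM).

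Fabp1, the fatty acid binding protein of liver cytosol, and Retsat, a retinol saturase of the endoplasmic reticulum, were the members of the PPAR-alpha list whose rise with time at 60 uM exceeded that in DMSO. Fabp1 had signals of 18543, 17797, 17238, 15817 and 15926 at 24 h and 25322, 23908, 23249, 22750 and 24615 at 48 h at 60 uM, and 7942, 7798, 7595, 7744 and 7687 and 6990.4, 6361, 7412, 8353 and 7908 in DMSO at the same times. At 60 uM the times were fully apart, and in DMSO they overlapped. Fabp1 rose by 0.49 ± 0.056 at 60 uM, changed by -0.073 ± 0.056 in DMSO without passing and rose by 1.05 ± 0.056 at 1000 uM. The 60 uM change exceeded the DMSO change by 0.56 ± 0.079 (adjusted p = 0.000234). With scaling to the poly-A controls the excess was 0.48 and did not pass (adjusted p = 0.194, range over the alternatives 4.71e-05 to 0.194). Retsat went from 16489 ± 658 to 22938 ± 573, a rise of 0.48 ± 0.042 against 0.19 ± 0.042 in DMSO. That difference, 0.28 ± 0.059, had an adjusted p of 0.0475, and its call ended when any 1 of 16 of the 20 arrays was left out (adjusted p up to 0.127) and with scaling to the poly-A controls (0.886). The bases before the start of both genes are shown because PPAR-alpha binds direct repeats of AGGTCA-like hexamers. The windows are the 250 bases upstream of the RefSeq start in the GRCr8 build, 5′ to 3′ on the gene's strand, both on the plus strand of chromosome 4. Fabp1 lies at chr4:104749090-104749339 and Retsat at chr4:106211209-106211458. Capitals mark the direct repeat in Fabp1 and a lone hexamer in Retsat.
Fabp1: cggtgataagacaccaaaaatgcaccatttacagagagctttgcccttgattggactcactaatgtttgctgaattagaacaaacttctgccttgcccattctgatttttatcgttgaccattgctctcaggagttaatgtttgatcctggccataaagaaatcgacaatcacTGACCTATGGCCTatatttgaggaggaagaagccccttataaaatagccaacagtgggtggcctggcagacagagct
Retsat: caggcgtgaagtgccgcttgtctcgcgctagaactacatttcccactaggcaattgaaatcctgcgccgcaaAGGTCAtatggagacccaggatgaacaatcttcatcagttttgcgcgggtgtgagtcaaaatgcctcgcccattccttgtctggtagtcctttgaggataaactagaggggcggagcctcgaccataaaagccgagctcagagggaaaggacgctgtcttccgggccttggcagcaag
The search was for 2 copies of AGGNCA in the same direction with 1 base between, on both strands. In Fabp1 it lies 77 to 65 bases before the start, at chr4:104749263-104749275, on the opposite strand, and reads AGGCCATAGGTCA there. Of the 16 genes whose change with time differed between 60 uM and DMSO, 12 have a window in the table and 1 of these, Fabp1, holds the repeat, which occurs in 0.368% of all 33469 windows. The hexamer AGGTCA alone occurs in 14.1% of windows and in 4 of the 12 (Amn, Fer1l5, Fabp1 and Retsat). A match is a run of letters and not a measured binding site.

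Among genes of fatty acid and cholesterol synthesis far more rose than fell at 60 uM, and the same was so in DMSO. In lipogenesis and desaturation, 12 of 23 measured members were higher, 1 lower and 10 did not pass (median 0.25). In DMSO 10 were higher and 1 lower (median 0.22), at 1000 uM 16 and 2 (median 0.41), and 0 of 23 differed between 60 uM and DMSO. Fads1, the delta-5 desaturase of polyunsaturated fatty acids, had signals of 1864, 2099, 1609.7, 1720.1 and 1627 at 24 h and 3859.6, 4007, 4077, 4342 and 5184 at 48 h. The arrays did not overlap, and the rise was 2.41-fold (1.27 ± 0.11). Scd2, a stearoyl-CoA desaturase, rose by 1.61 ± 0.17 from 468 ± 68.7, and its dimmer probe set changed by 0.50 without passing. Fasn, fatty acid synthase, went from 3097, 2975, 2449.6, 2916 and 3043 to 4229, 4866, 4842, 5299 and 5483, a rise of 0.77 ± 0.11, and Pnpla3, a lipid droplet acylhydrolase, rose by 0.93 ± 0.14. A second probe set of each rose too (0.66 and 1.36), and another of Pnpla3 did not pass (0.43). Fads2, the delta-6 desaturase, rose by 0.62 ± 0.14, with -0.029 ± 0.14 in DMSO and a rise of 1.64 ± 0.14 at 1000 uM. In cholesterol synthesis and uptake, 10 of 19 measured members were higher, 2 lower and 7 did not pass (median 0.22). Dhcr7, which makes the last step of cholesterol synthesis, rose by 0.53 ± 0.052 from 10870 ± 582, and the earlier enzymes Msmo1 and Sqle rose by 0.42 ± 0.064 and 0.40 ± 0.09. Tm7sf2, a sterol reductase of the same pathway, fell by 0.55 ± 0.06. The direction of both lists was the same under the 3 other scalings, with 9 to 11 cholesterol genes and 10 to 12 lipogenic genes higher.

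More drug-metabolising cytochrome P450 genes fell than rose, and more conjugating enzymes rose than fell. In P450 families 1 to 3, 4 of 25 measured members were higher, 10 lower and 11 did not pass (median -0.10). Cyp2c11, the most male-specific of the rat CYP2C enzymes, had signals of 10418, 11104, 11488, 11180 and 10375 and then 5933, 4762, 5523, 5897 and 6066. The arrays at 48 h were far below those at 24 h, with a fall of 0.96 ± 0.09. In DMSO the fall was 0.39 ± 0.09, and the difference, -0.56 ± 0.13, did not pass (adjusted p = 0.0888). Cyp2c7 fell by 1.04 ± 0.094 and Cyp2c12, the female-typical form, by 0.88 ± 0.21 from 1029.7 ± 219.8. Cyp2c genes are close in sequence, so a probe set may read more than 1 of them. Among growth hormone and male-type liver genes, which share the Cyp2c members, 2 of 23 measured members were higher, 7 lower and 14 did not pass (median -0.12). Of the conjugating enzymes, 9 of 28 measured members were higher, 1 lower and 18 did not pass (median 0.15). Gstm7, a mu-class glutathione transferase, rose by 0.90 ± 0.10 from 2329 ± 318 to 4322 ± 292. Gsta4, which conjugates lipid peroxidation products, rose by 0.48 ± 0.045 and Ugt2b10, a glucuronosyltransferase, by 0.49 ± 0.084. In bile acid synthesis and transport, 8 of 22 measured members were higher, 3 lower and 11 did not pass (median 0.065). Cyp7a1, which starts and limits the conversion of cholesterol to bile acids, went from 1419, 1202, 927, 1074 and 1299 to 1842, 1771, 1929, 2227 and 2038. The times did not overlap, and the rise was 0.74 ± 0.16. Slco1b2, an organic anion importer, rose by 0.89 ± 0.11, and the bile acid conjugating enzymes Baat and Slc27a5 rose by 0.41 ± 0.09 and 0.39 ± 0.077. Nr1h4, the bile acid receptor FXR, fell by 0.23 ± 0.065, a call that ended without replicate 1 at 48 h (adjusted p = 0.0703, range over all alternatives 0.00527 to 0.466). After scaling to the poly-A controls 0 of the list were lower. In DMSO the P450 list had 2 higher and 10 lower (median -0.185), and the male-type list 0 higher and 8 lower (median -0.172). There 8 conjugating enzymes were higher and 3 lower (median 0.074), and in the bile acid list 5 were higher and 3 lower (median 0.0016).

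Far more genes of secreted liver proteins fell than rose. Of the plasma proteins, 2 of 28 measured members were higher, 13 lower and 13 did not pass (median -0.20), with the fall of Serpina6 the largest. Vtn, vitronectin, fell by 0.64 ± 0.04 from 43112 ± 2318 to 27702 ± 1005, and Fetub, fetuin B, by 0.55 ± 0.044. In complement and coagulation, 4 of 35 measured members were higher, 13 lower and 18 did not pass (median -0.14). Serpind1, heparin cofactor II, fell by 0.75 ± 0.11, and the membrane attack components C6 and C9 by 0.71 ± 0.12 and 0.60 ± 0.071. In the acute phase list, 2 of 27 measured members were higher, 12 lower and 13 did not pass (median -0.16). A2m, alpha-2-macroglobulin, the major acute-phase protein of the rat, went from 75331, 66416, 78196, 66791 and 70063 to 40622, 41858, 38756, 35501 and 37581. All 48 h arrays were lower, by 0.88 ± 0.064. Crp, C-reactive protein, rose by 0.70 ± 0.087 and so went against most of its list. It was named after its value was seen. Of the apolipoproteins, 1 of 21 measured members were higher, 6 lower and 14 did not pass (median -0.012). Apoa2 fell by 0.77 ± 0.052 from 35667 ± 2588, Apoc1 by 0.58 ± 0.049 and the hepatic lipase Lipc by 0.52 ± 0.05. The list median turned positive with quantile normalization (0.013) and with scaling to the poly-A controls (0.055), while 6 and 5 members still passed as lower. In DMSO the same lists had 11 of 28, 13 of 35, 15 of 27 and 7 of 21 members lower, in the order given. After scaling to the poly-A controls, 9 of the plasma proteins, 8 of the complement and coagulation genes and 8 of the acute phase genes were lower at 60 uM. Of the hepatocyte-defining genes 3 of 11 fell, Fgb, the fibrinogen beta chain, by 0.32 ± 0.056, the fetuin Ahsg by 0.23 ± 0.044 and the transcription factor Hnf4a by 0.31 ± 0.052. Other probe sets of Fgb (0.079) and Hnf4a (-0.028 and 0.023) did not pass, and none of the 3 passed after scaling to the poly-A controls (adjusted p 0.0901, 0.291 and 0.157).

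Genes of the integrated stress response, which the transcription factor ATF4 raises when amino acids run short or protein folding fails, fell more often than they rose. In that list, 1 of 35 measured members were higher, 15 lower and 19 did not pass (median -0.21). In DMSO 2 were higher and 4 lower (median -0.032), and at 1000 uM 1 and 28 (median -0.57). The difference between 60 uM and DMSO passed for 0 of the 35 (median -0.18), while the change at 1000 uM lay below that at 60 uM for 14. Trib3, a pseudokinase induced by ATF4, had signals of 7704, 5207, 6212, 5244 and 4270.1 at 24 h and 4259, 3527, 3269.6, 3272 and 2991 at 48 h. The 24 h arrays spread widely, the lowest of them just above the highest at 48 h, and the fall was 0.71 ± 0.14 (adjusted p = 0.00109). Of its other 2 probe sets 1 fell by 0.76 and 1 did not pass (-0.28). Asns, asparagine synthetase, fell by 0.33 ± 0.061, and Slc3a2 and Slc7a1, genes of amino acid transport, by 0.37 ± 0.055 and 0.42 ± 0.11. Chac1, a glutathione-cleaving enzyme, fell by 0.51 ± 0.13 from 5105, 4565, 4757, 4516 and 4260.2 to 3627, 3259, 3446, 2796 and 3206, and Atf4 itself by 0.22 ± 0.052. The aminoacyl-tRNA synthetases of serine, glycine and asparagine, Sars1, Gars1 and Nars1, fell by 0.29 ± 0.08, 0.28 ± 0.059 and 0.24 ± 0.058. Aldh1l2, a mitochondrial folate enzyme, rose by 0.53 ± 0.14, a call that ended without replicate 5 at 24 h (adjusted p = 0.0505, range over the alternatives 0.00449 to 0.0505). Asns, Slc3a2, Slc7a1, Atf4 and the synthetases were named after their values were seen. Of the ER chaperones and unfolded protein response, 0 of 21 measured members were higher, 7 lower and 14 did not pass (median -0.15). The same list in DMSO had 0 higher and 8 lower (median -0.099). At 60 uM Creld2 fell by 0.54 ± 0.12. Edem1, which routes misfolded glycoproteins to degradation, fell by 0.24 ± 0.04, and the transcription factor Xbp1 by 0.20 ± 0.033. After scaling to the poly-A controls only 1 of the 35 stress response genes and 1 of the 21 chaperones passed as lower, with medians of -0.15 and -0.080. Chac1, Edem1 and Xbp1 were among those that did not (adjusted p 0.056, 0.255 and 0.429).

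Some interferon-response genes fell, and some markers of liver macrophages and endothelium fell as well. In the interferon list, 0 of 25 measured members were higher, 10 lower and 15 did not pass (median -0.22). The count lower was 6 with scaling to the poly-A controls. Isg15, a ubiquitin-like modifier, had signals of 4812, 3785, 4785, 3156 and 2640.3 at 24 h and 2120.2, 1797, 1888, 1290.5 and 1660.4 at 48 h. The times did not overlap despite a wide spread at 24 h, and the fall was 1.11 ± 0.16 (adjusted p = 9.87e-06). Usp18, the protease that removes Isg15 from proteins, fell by 0.87 ± 0.15, and the antiviral GTPase Mx2 by 1.10 ± 0.22. In DMSO Isg15 and Usp18 fell by 0.81 ± 0.16 and 0.82 ± 0.15, and 7 of the 25 genes were lower. Of the interleukin-1 and NF-kB list 0 of 21 rose and 3 fell: Il1rn, the decoy receptor Il1r2 and the chemokine Cxcl1, the last by 0.86 ± 0.19. In DMSO 2 of the 21 were higher and 5 lower. The plated cells can hold a few macrophages and endothelial cells. In such bulk RNA, fewer cells of a type and less RNA per cell cannot be told apart. Of the 17 Kupffer cell and macrophage markers, 12 were measured, 0 rose and 4 fell (median -0.43): C1qb, C1qc (-0.76 ± 0.18), C1qa (-0.63 ± 0.19) and Cd5l (-1.07 ± 0.34). The calls of C1qa and Cd5l ended when any 1 of 5 and any 1 of 8 of the 10 arrays were left out (adjusted p up to 0.103 and 0.108). With scaling to the poly-A controls 2 macrophage markers and 1 endothelial marker were lower, and C1qa, Cd5l and Lyve1 did not pass (adjusted p 0.123, 0.109 and 0.109). The summed signal of the 12 ran from 29964 to 31376 at 24 h and from 25896 to 28824 at 48 h, without overlap. Most of that sum comes from Cd14 and Lyz2, which did not pass. Their mean signals were 17378 and 6187 at 24 h and 16503 and 5810 at 48 h. The sum is therefore no measure of a fall across the set. Adgre1, a surface receptor that defines the lineage, lay at or under the level of empty control probes at both times (42.1 and 52.5), and Cd163 and Ptprc lay below the filter. Of the 15 endothelial markers 7 were measured and 2 fell (median -0.37), Lyve1 by 0.62 ± 0.18 and the Fc receptor Fcgr2b by 0.62 ± 0.09. Lyve1 did not pass without replicate 1 at 48 h or replicate 3 at 24 h (adjusted p 0.051 and 0.0526). Clec14a, an endothelial gene outside the list, rose. The summed signal of the 7 endothelial markers ran from 4742 to 5462 at 24 h and from 3426 to 4524 at 48 h. Fcgr2b, the brightest of them, went from a mean of 1971 to 1285, while Kdr went from 534 to 570 without passing. The summed interferon signal was 206620 to 235200 and then 179550 to 207850, with 1 array of 48 h inside the 24 h range. In DMSO 4 of the 12 macrophage markers and 2 of the 7 endothelial markers were lower and 0 higher (medians -0.46 and -0.38). The macrophage and endothelial markers that passed at 60 uM fell, as did interferon, acute-phase and interleukin-1 genes. The part of these cells in those falls was not tested. Stellate cell markers (6 measured), lymphoid and blood markers (5) had 0 that passed, and Krt7, Spp1, Lrat, Lum and Tagln lay at or under the control level at 48 h. Epcam, counted among 2 measured bile duct markers, rose by 0.37 ± 0.055.

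**Figure D2:**
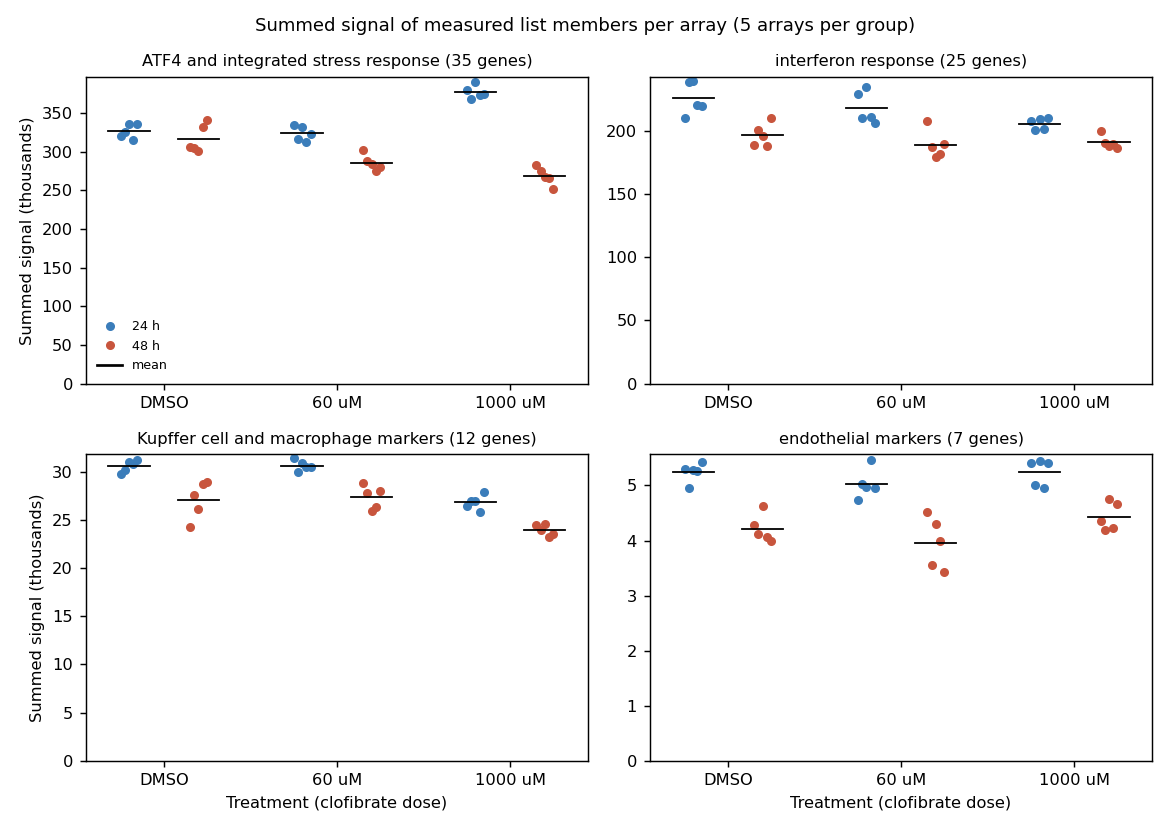
Summed signal, in units of 1000, of the measured members of 4 gene lists in each of the 30 arrays, by treatment, at 24 h (blue) and 48 h (red), with the group mean as a line. At 60 uM the Kupffer cell and endothelial sums of the 2 times do not overlap, and the same is so in DMSO and at 1000 uM. The brightest members weigh most in a sum, so it does not show a fall of each member. The stress response sum ran from 312920 to 334670 at 24 h and from 275760 to 301750 at 48 h.

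**Figure D3:**
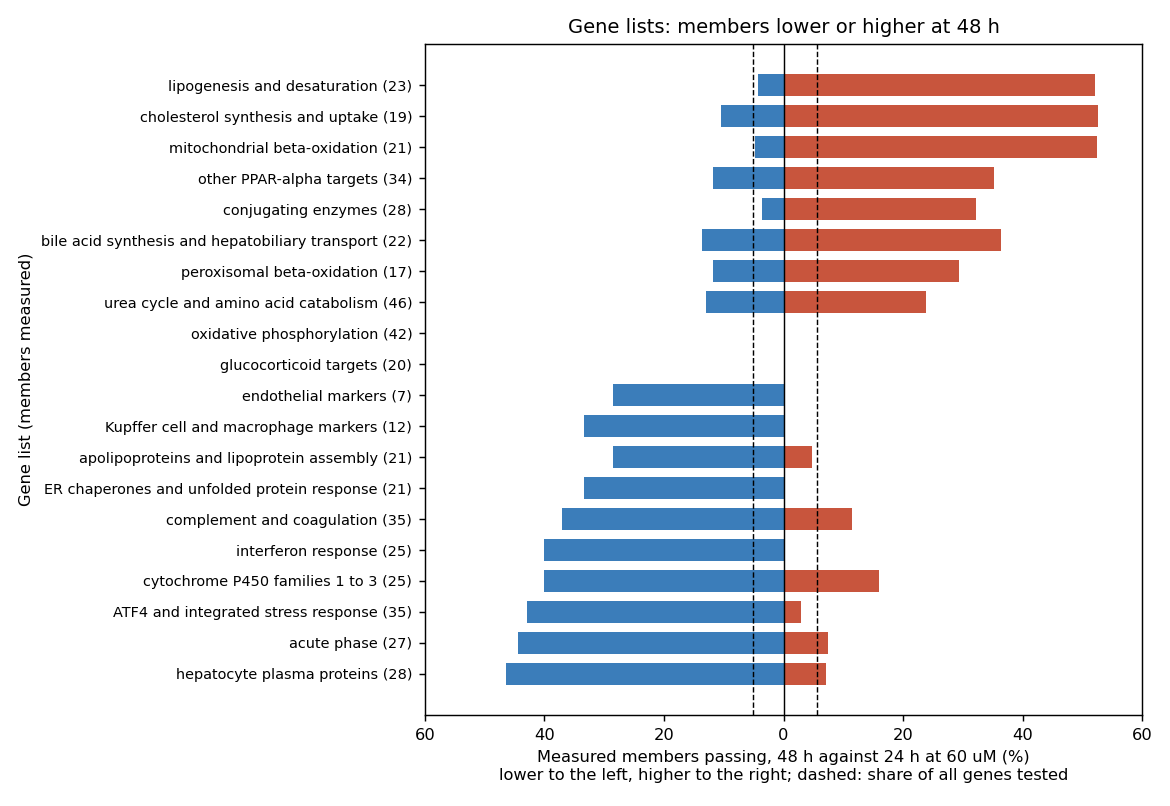
Share of measured members of 20 gene lists that passed as lower (left, blue) or higher (right, red) at 48 h against 24 h at 60 uM, in percent, with the number measured in parentheses. Dashed lines mark the share of all genes tested that passed, 5.06% lower and 5.65% higher. The lists were chosen with results of these data known.

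Several lists had 3 members or fewer that passed at 60 uM, beside 5.65% higher and 5.06% lower over all genes tested. The shares of ribosomal protein genes lower and of peroxisome biogenesis genes higher lay above these. Of 42 oxidative phosphorylation genes 0 passed (median 0.0064), as in the glucocorticoid list (0 of 20, median -0.089). With quantile normalization 6 of the 42 were higher. In the glucocorticoid list 2 were lower with median centring and 2 with quantile normalization, and up to 3 when 1 array was left out. In limma without adjustment the whole comparison had 3838 of 18625 probe sets under 0.05, a part of them by chance alone. At 1000 uM, 30 of the 42 oxidative phosphorylation genes rose. Of 26 cell cycle genes only Spc24, a kinetochore component, passed (-0.26 ± 0.069), a call that ended without replicate 2 at 24 h (adjusted p = 0.0608) and with scaling to the poly-A controls (0.344). Of 32 cytosolic ribosomal protein genes 3 passed as lower, a count that ran from 0 to 7 when 1 array was left out and was 0 with scaling to the poly-A controls. Of 18 peroxisome biogenesis genes Pxmp2, a peroxisomal membrane channel, and Pex7, an import receptor, rose by 0.36 ± 0.058 and 0.31 ± 0.047.

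The change with time at 60 uM differed from that in DMSO for 16 genes, 0.151% of those tested, 7 with a higher and 9 with a lower change at 60 uM. In the same limma fit 1443 of the 18625 probe sets tested had an unadjusted p under 0.05, and many of these arise by chance alone. The median half-width of the 95% interval of this difference was 0.363, without adjustment for the number of tests. On simulated data the fit recovered 31% of differences of 0.5 and 70% of differences of 1 (log2). Differences well above 0.363 can therefore be missed, and the count of 16 is not complete. Cyp17a1, the steroid 17-alpha-hydroxylase, had signals of 408, 535, 454, 496 and 636 at 24 h and 889, 940.5, 1087, 1040.4 and 1037 at 48 h at 60 uM, and 443, 415, 345, 344 and 384 and 344, 383, 476, 432 and 380.0 in DMSO. At 60 uM the times were fully apart, and in DMSO they overlapped. The difference was 0.93 ± 0.16 (adjusted p = 0.00527, 0.083 with only the arrays compared, 0.138 with scaling to the poly-A controls, range 0.000944 to 0.138). Afm, the plasma vitamin E binding protein afamin, went from 8942, 9630.3, 8481, 8575 and 8759 to 6442, 6551, 6592, 7286 and 5928 at 60 uM and from 8246, 8538, 8066, 8690.2 and 8272 to 2970.5, 3856, 3801, 4442 and 3804 in DMSO. It fell in both, by 0.44 ± 0.065 at 60 uM and by 1.16 ± 0.065 in DMSO, with a difference of 0.72 ± 0.092 (adjusted p = 0.00014). With scaling to the poly-A controls the difference was 0.63 and did not pass (adjusted p = 0.138, range 4.61e-06 to 0.138). Fer1l5 and Smap2 had differences of 0.57 ± 0.092 and 0.53 ± 0.11, and the call for Smap2 ended when any 1 of 11 of the 20 arrays was left out (adjusted p up to 0.107). Neither passed with scaling to the poly-A controls (0.372 and 0.761). Dimmer probe sets of Smap2 had differences of -0.14 and 0.098 and did not pass (adjusted p 0.935 and 0.955). Amn, a membrane partner of the vitamin B12 receptor, had the widest gap, 3.02 ± 0.58 (adjusted p = 0.0196), from dim and scattered signals. At 60 uM it went from 283, 167, 109, 117 and 101 to 475, 399, 559, 433 and 361, and in DMSO from 325, 723, 674, 323 and 488 to 94.9, 351, 116, 442 and 112, where the times overlap. The call ended without replicate 1 or 5 of DMSO at 48 h, replicate 2 of DMSO at 24 h, or replicate 3 of either 60 uM group (adjusted p up to 0.0629).

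Of the 9 genes with a lower change at 60 uM, Il1r2, the decoy receptor of interleukin-1, had the largest difference. Its signals at 60 uM were 1874, 2173, 2548, 2449 and 1669 and then 538, 616, 601, 571 and 617, and in DMSO 2084, 3318, 3544, 3740.3 and 2743 and then 3197, 2245, 2158, 1520 and 1504. The 60 uM arrays at 48 h lay far below all other 60 uM and DMSO arrays, and the DMSO times overlapped. The difference was -1.28 ± 0.23 (adjusted p = 0.0108). Npy, the gene of neuropeptide Y, went from 2820, 3172, 3247, 2803 and 2719 to 1970.1, 1692, 1913, 1773 and 1513 at 60 uM and from 4357, 5036, 4974, 5344 and 4217 to 5163, 5905, 5886, 4683 and 4509 in DMSO. It fell by 0.74 ± 0.083 at 60 uM, and its change in DMSO, 0.12 ± 0.083, did not pass. S100a6, a calcium-binding protein, fell by 0.97 ± 0.079 at 60 uM against -0.29 ± 0.079 in DMSO, from 15275 ± 1071 to 7795 ± 334. Tgif1, a transcriptional repressor, differed through its rise in DMSO. At 60 uM its signals were 4530.3, 4657, 4695, 4538 and 4189.5 and then 4189, 4779, 4408, 4477 and 4769.5, which overlap, and in DMSO 3045, 2806, 3172, 3326 and 3167 and then 5085, 4197, 5017, 5057 and 5053, which do not. The difference was -0.65 ± 0.087 (adjusted p = 0.000158). These 4 calls held under all 31 alternatives run for each, with adjusted p up to 0.0465 for Il1r2, 0.00321 for Npy, 0.0207 for S100a6 and 0.0065 for Tgif1. The others were Lipt2 (-1.13 ± 0.20), Pla2g15 (-0.86 ± 0.18), Anp32a (-0.75 ± 0.15), Fundc2 (-0.52 ± 0.10) and Pglyrp1 (-0.47 ± 0.089), the last named because it completes the count. A second, dimmer probe set of Lipt2 had a difference of 0.16, the other direction, and did not pass (adjusted p = 0.937). The calls of Pla2g15, Anp32a and Fundc2 ended when any 1 of 14, 5 and 5 of the 20 arrays was left out (adjusted p up to 0.126, 0.0679 and 0.0648), and that of Fundc2 also with scaling to the poly-A controls (0.130).

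**Figure D4:**
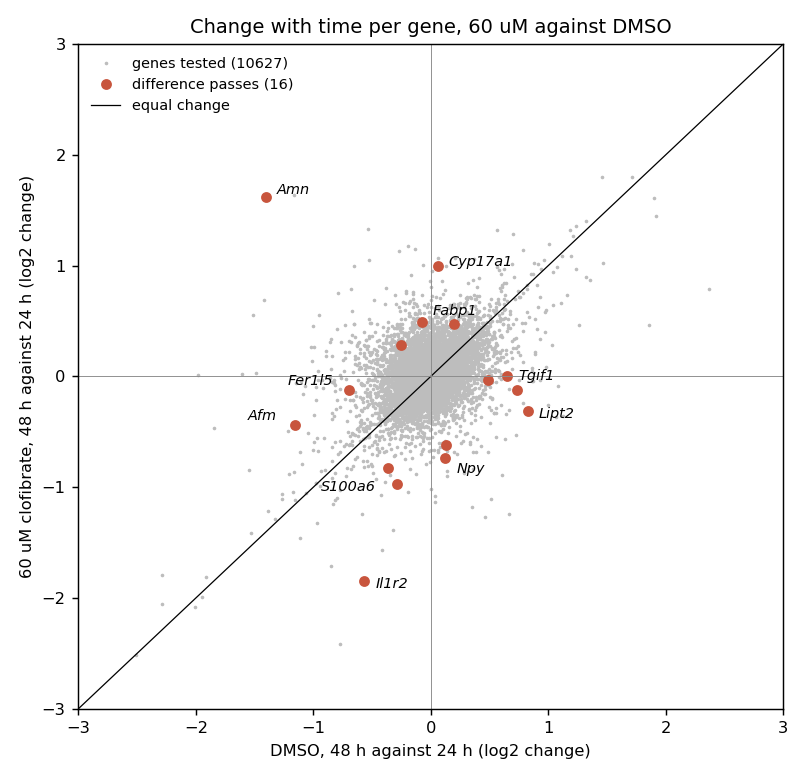
Log2 change from 24 to 48 h of each of 10627 genes in DMSO (horizontal) and at 60 uM clofibrate (vertical), 1 point per gene, with the 16 genes whose changes differed drawn in colour and the line of equal change. The 2 axes share no array.

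**Figure D5:**
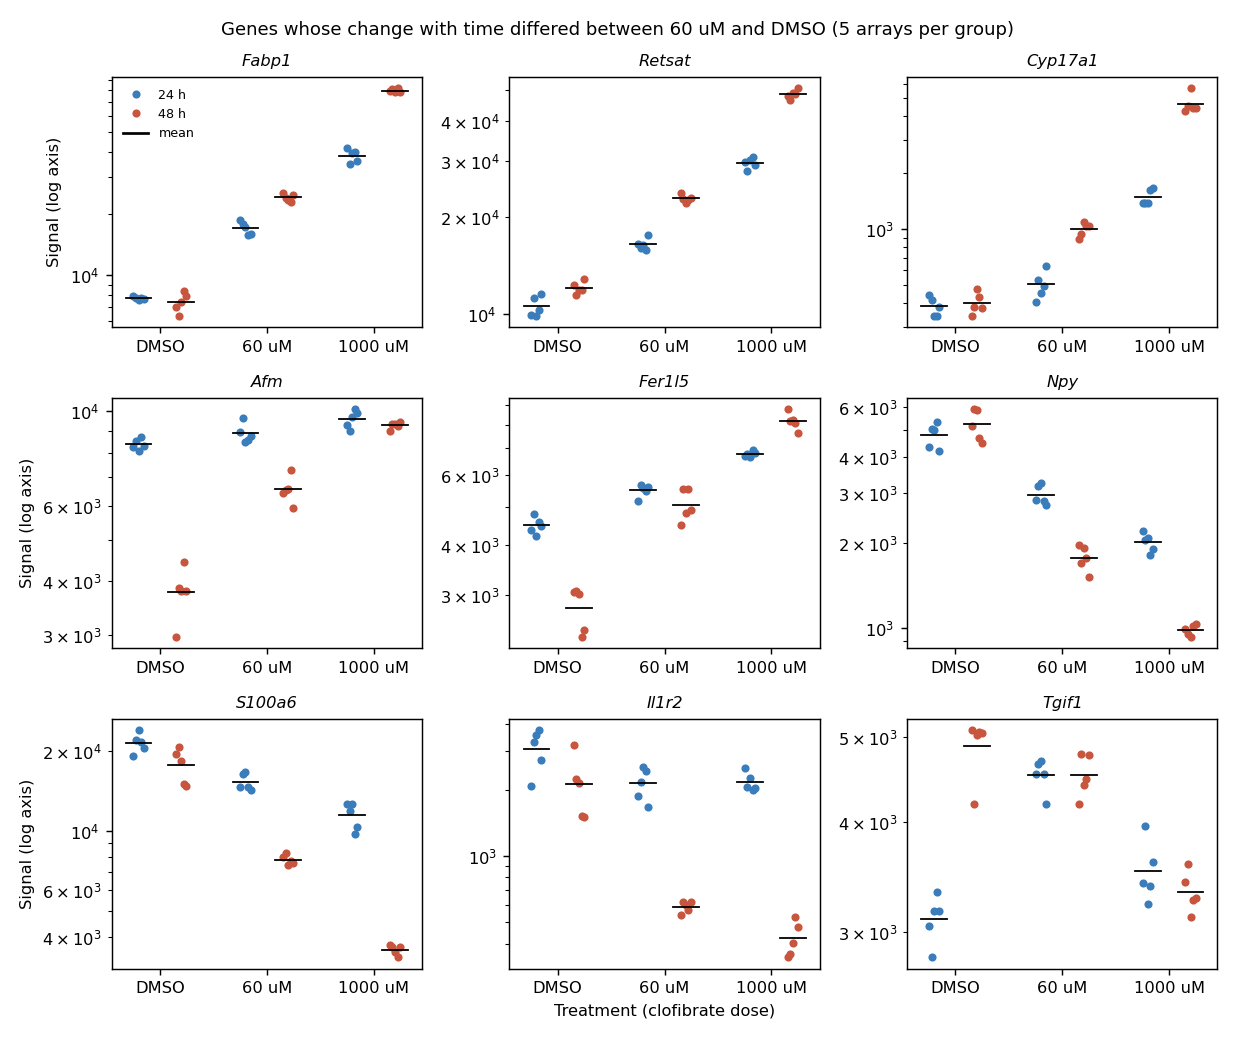
Signals on a log axis, 1 point per array, at 24 h (blue) and 48 h (red) in DMSO and at 60 uM and 1000 uM clofibrate, for genes whose change with time at 60 uM differed from that in DMSO. Il1r2 at 60 uM falls from 1669 to 2549 at 24 h to 538 to 617 at 48 h.

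At 1000 uM the change with time differed from that at 60 uM for 444 genes, 4.18% of those tested, 245 higher and 199 lower. This comparison uses the same 60 uM arrays as the one with DMSO, so the 2 are not independent. Oat, ornithine aminotransferase, had signals of 6754, 6011, 7245, 6751 and 7891 and then 6732, 7095, 7261, 7329.8 and 9125 at 60 uM, times that overlap, and rose at 1000 uM from 10863 ± 1396 to 25311 ± 2755. The difference was 1.11 ± 0.12 (adjusted p = 8.6e-07). Sult1c3, a sulfotransferase, and Prss23, a serine protease, did not pass at 60 uM (0.24 ± 0.14 and 0.50 ± 0.19) and rose by 1.46 ± 0.14 and 2.09 ± 0.19 at 1000 uM. Abcc2, the canalicular export pump MRP2, went from 21943, 21080, 23468, 19396 and 20167 to 19156, 19484, 18434, 17972 and 17896 at 60 uM, ranges that touch at 1 array of each time (adjusted p up to 0.146 with 1 array left out, and 0.538 with scaling to the poly-A controls), and from 13007 ± 1214 to 5866 ± 464 at 1000 uM, a difference of -0.96 ± 0.083. Mthfd2, a mitochondrial folate enzyme, and A2m had differences of -1.07 ± 0.19 and -1.07 ± 0.091. Cyp17a1, Fabp1 and Npy changed at 1000 uM by 1.65 ± 0.11, 1.05 ± 0.056 and -1.02 ± 0.083, beside 0.99 ± 0.11, 0.49 ± 0.056 and -0.74 ± 0.083 at 60 uM. Afm, which fell at 60 uM, changed by -0.051 ± 0.065 at 1000 uM.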

How the data were processed

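RNA of 30 hepatocyte cultures was measured on 1-colour arrays. The deposited values are MAS5 signal intensity on a linear scale, which the authors had scaled per array: the mean without the 2% at each end was 1500.6 to 1500.7 on every array. For MAS5 no version is given in the sources used here. Signals were turned to log2. After leaving out control probe sets (31042 remained) and those at or under the 40th percentile of mean log2 signal (signal 255.2), 18625 were tested in limma 3.58.1 (R 4.3.3) with a mean per group and an intensity trend, adjusted by Benjamini-Hochberg. Symbols came from the platform annotation updated through the RefSeq GRCr8 gene table: 20826 probe sets had 1 symbol, 436 several and 9780 none. The brightest probe set stands for a gene. Named are the 15 largest passing changes each way among genes whose arrays did not overlap between the times. Also named are 8 each way for the differences, up to 4 per list and 15 fixed genes. Others are named where a count or list turns on them. The 43 lists held 1126 genes, 889 of them measured. Members and lists were chosen with earlier results of these data known. The control level is the highest of 3 TrpnX probe sets. On simulated data with independent normal noise the fit recovered 55% of changes of 0.5 and 83% of changes of 1 (log2) for the 60 uM comparison on 18625 probe sets. Far fewer probe sets were changed in the simulation than passed at 60 uM. The adjustment depends on that number, so the rates need not hold for the real arrays. Alternatives were other scalings, filters, an added 64, array weights, no trend, array number, fewer arrays, leaving out each array, and the mean of a gene's probe sets.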

Additional observations from a re-analysis of the deposited data

Results flagged for a closer look

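Among the named genes, 26 of 430 groups of 5 arrays at 60 uM (6.05%) held 1 array whose gap to the nearest other exceeded the Dixon critical value of 0.71 of the group's range, where chance gives about 1 in 20. In replicate 1 at 24 h, Duoxa1 read 41.3 (others 306 to 584), Smap2 read 1721 (others 1521 to 1571) and Msmo1 read 9964 (others 12004 to 12401). In replicate 3 at 24 h, Gstp3 read 1481 (others 1098 to 1156), Fasn read 2449.6 (others 2916 to 3097), Baat read 5980.1 (others 7202 to 7347) and Fabp3 read 88 (others 365 to 487). In replicate 5 at 24 h, Cyp1a2 read 16651 (others 14339 to 14810), Gys2 read 11928 (others 9834 to 10313) and Cyp2c12 read 666 (others 1020.5 to 1214). In replicate 1 at 48 h, Tdrd3 read 1239.6 (others 785 to 847), Sesn1 read 2178 (others 2737 to 2881), Tagln2 read 4526 (others 6694 to 7645), Psma5 read 18136 (others 15646 to 15815), Atp5f1c read 56227 (others 39629 to 43840) and Angptl4 read 15321 (others 16934 to 17161). In replicate 2 at 48 h, Reln read 282 (others 409 to 444). In replicate 4 at 48 h, Smad7 read 42.4 (others 351 to 644), Usp18 read 2067 (others 2397 to 2532) and Ctss read 1427 (others 1349 to 1363). In replicate 5 at 48 h, Oat read 9125 (others 6732 to 7329.8), Cxcl12 read 1787 (others 1422 to 1514), Slc7a11 read 1387 (others 1704 to 1767), Rps13 read 61.2 (others 257 to 387), Ctsd read 14948 (others 12932 to 13232) and Klrb1a read 401 (others 477 to 495). 

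The change with time at 60 uM differed from that in DMSO, by the test of the difference in limma, for Amn (3.02), Cyp17a1 (0.93), Afm (0.72), Fer1l5 (0.57), Fabp1 (0.56), Smap2 (0.53), Retsat (0.28), Il1r2 (-1.28), Lipt2 (-1.13), Npy (-0.86), Pla2g15 (-0.86), Anp32a (-0.75), S100a6 (-0.68), Tgif1 (-0.65) and Fundc2 (-0.52), as 60 uM minus DMSO on the log2 scale. The largest differences of the change at 1000 uM from that at 60 uM were those of Prss23 (1.59), Lrrc45 (1.30), Sult1c3 (1.22), Dhrs7l1 (1.15), Oat (1.11), Poteml2 (1.09), Cxcl12 (1.07), Fads2 (1.01), Zfp185 (-1.35), Tmco4 (-1.17), Tdrd3 (-1.11), Rragd (-1.10), Mthfd2 (-1.07), A2m (-1.07), Procr (-1.07) and Abcc2 (-0.96), as 1000 uM minus 60 uM. The call for Zfp185 ended without replicate 1 of either 60 uM group or replicate 4 of 1000 uM at 48 h (adjusted p up to 0.0512, with a range up to 0.143 over all alternatives).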

How the results depend on the processing

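Of 246 named-gene results, 169 kept direction and side of the threshold under every alternative run, 58 lost the call in at least 1, 18 gained it in at least 1 and 2 reversed: with the mean of the gene's probe sets the change at 60 uM was -0.023 for Smap2 and -0.10 for Acaa2. Scaling to the poly-A controls left 172 lower at 60 uM, 1567 higher and 121 lower in DMSO, 671 lower at 1000 uM, 1 with a higher change at 60 uM than in DMSO, and 42 higher and 36 lower for 1000 uM against 60 uM. Of the 16 calls against DMSO 8 remained there, with Amn the only higher one. Those that ended were Cyp17a1 (0.85, adjusted p 0.138), Afm (0.63, 0.138), Fer1l5 (0.48, 0.372), Fabp1 (0.48, 0.194), Smap2 (0.44, 0.761), Retsat (0.20, 0.886), Fundc2 (-0.60, 0.130) and Pglyrp1. With only the arrays compared, 438 were higher and 320 lower in DMSO and 4 had a higher change at 60 uM than in DMSO. For that difference quantile normalization gave 11 higher and 14 lower, and no intensity trend 5 lower. Leaving out 1 array gave 699 to 902 higher and 561 to 744 lower at 60 uM, and 4 to 9 higher and 5 to 12 lower for the difference from DMSO, with 4 higher without replicate 2 of DMSO at 24 h or replicate 3 of either 60 uM group. The cause of these moves was not tested. No paired analysis was run. The replicate numbers follow accession order, and the labels do not say whether they pair cultures. Dim signals limit single genes such as Amn and Lrrn4cl.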

Other observations

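Genes of amino acid breakdown moved both ways at 60 uM: of 46 measured members of the urea cycle and amino acid list 11 rose and 6 fell (median 0.076). Over all genes tested 5.65% rose and 5.06% fell, the shares to set beside the counts of this paragraph. Dpys and Upb1, enzymes of pyrimidine breakdown, rose by 0.61 ± 0.11 and 0.47 ± 0.059, Csad, which makes the taurine precursor, by 0.53 ± 0.061 and the urea cycle enzyme Otc by 0.46 ± 0.12. Aass, of lysine breakdown, and Hal, histidine ammonia-lyase, fell by 0.68 ± 0.068 and 0.56 ± 0.12. Of 33 lysosome and autophagy genes 7 rose, with the protease Ctsd at 0.42 ± 0.072, and 4 fell, with Ctss, a cathepsin abundant in macrophages, at -0.73 ± 0.089. Scaling to the poly-A controls gave 3 higher and 2 lower. Of 31 cytoskeleton genes 5 rose, among them Tagln2 (0.50 ± 0.12) and Anxa3 (0.34 ± 0.088), and 3 fell. That scaling left 2 of the amino acid genes and 1 of the cytoskeleton genes lower.

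Over all genes tested at 60 uM, 5.65% rose and 5.06% fell, and several of the list counts below lie near or under those shares. Of 19 iron genes 1 rose, the iron exporter Slc40a1 (0.37 ± 0.044), and 3 fell, Hamp, the ferroxidase Cp (-0.39 ± 0.069) and Steap4 (-0.36 ± 0.11). Of 32 proteasome genes 5 subunits fell by at most 0.20 and Psme1, an activator subunit, rose by 0.21 ± 0.042. With scaling to the poly-A controls 0 of the 32 were lower, with Psma5, Psmd12 and Psmd4 at adjusted p 0.357, 0.449 and 0.521, and with 1 array left out 3 to 6 were lower. Among 33 hepatocyte transcription factors and nuclear receptors Onecut2 rose by 0.32 ± 0.10, and Rora, Cebpb, Nr1h4 and Hnf4a fell, Rora by 0.54 ± 0.10. A second probe set of Rora did not pass (-0.23), and the mean of its probe sets gave -0.38 (adjusted p = 0.0637). Only 1 of these factors was lower with scaling to the poly-A controls. Of 33 genes of glucose metabolism 4 passed as higher, with the sorbitol dehydrogenase Sord at 0.40 ± 0.048, and the mitochondrial Pck2 fell by 0.55 ± 0.13. The count higher was 1 with median centring or scaling to the poly-A controls and ran from 1 to 6 when 1 array was left out. The calls of Onecut2 and Steap4 each ended when any 1 of 4 of the 10 arrays was left out (adjusted p up to 0.129 and 0.105), that of Onecut2 also with median centring (0.0563) and that of Steap4 with scaling to the poly-A controls (0.198). In DMSO the iron list had 1 higher and 4 lower, and the proteasome list 0 and 0. The transcription factor list had 2 higher and 3 lower there, and the glucose list 4 and 0. The genes of these paragraphs that are not among the 4 of their list were chosen after their values were seen.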
